A study of Mus musculus with 73 samples.

Results

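The TOM complex is the entry gate for almost all proteins that mitochondria import from the cytosol. The genes described here encode 6 of its subunits, Tomm5, Tomm6, Tomm7, Tomm20, Tomm22 and Tomm40, together with Timm23, the channel of the inner membrane. These 7 genes of 55291 in the count table were taken by name, and the set was proposed for the decline of Tomm7 with Slc26a5, set against the other subunits. Slc26a5 encodes prestin, whose voltage-driven shape change lets outer hair cells amplify sound. The rank correlation of each member with Slc26a5, before and after correction for the share of counts from mitochondrially encoded genes (the mt- share), thus chose the set, and those values are given as a description with no test.

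In the TOM complex, Tomm40 forms the pore through the outer membrane. Tomm20 and Tomm22 are receptors that bind the targeting signals of incoming proteins, and Tomm22 also holds the pores together. Tomm5, Tomm6 and Tomm7 are small single-span subunits that flank the pore and affect its assembly and stability. Tomm7 is also known in human cells to hold the kinase PINK1 at the outer membrane of damaged mitochondria. Timm23 is the channel subunit of the inner membrane translocase, which receives proteins with a cleavable targeting sequence from the TOM complex. Inner hair cells are the sensory cells that drive the auditory nerve.

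The material was 73 single cells picked by hand from mouse cochleae at postnatal day 14, each labelled a Casz1 -/- inner hair cell. The mice carried Atoh1Cre/+, Casz1flox/flox, Fgf8-Flpo/+, the Cre reporter Rosa26-CAG-Loxp-stop-Loxp-3xGFP(Ai47) and, as the other allele, the Flp reporter Rosa26-CAG-Frt-stop-Frt-tdTomato. Cre from Atoh1 acts in hair cells in general, Flp from Fgf8 marks inner hair cells, and cells with both colours were picked. Every cell belongs to the same group and no label ties a cell to an animal, so the 73 cells are 1 sample with no replicates. Wild-type cells were not analysed here. All values below describe variation among these cells, without p-values and without a statement on what the loss of Casz1 changed.

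Library totals ran from 11027945 to 37183702 counts with a median of 17333640, and between 6954 and 10688 genes were counted in a cell. Levels are given as CPM, the count of a gene scaled to the total of its library. Of 10 general hair cell markers, 6 reached 10 CPM in all 73 cells, as did 4 of 12 inner and 2 of 12 outer hair cell markers. Of 55 markers of other cochlear cell types, 47 reached 10 CPM in fewer than 10 cells. Casz1 itself had a median of 42.1 CPM and reached 10 CPM in 55 cells. Which exons were removed is not stated in the labels, so this level does not check the deletion. Its rank correlation with Tomm7 was 0.02.

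Tomm7 lies on chromosome 5 of mm10 from 23838944 to 23844161 on the minus strand, in 3 exons that share no base with an exon of another annotated gene. Its 1125-base transcript has a coding sequence of 168 bases with the stop codon, which encodes 55 residues. GENCODE vM21 lists 2 processed pseudogenes of it at other loci, Gm13450 on chromosome 2 (34964738 to 34964904) and Gm45113 on chromosome 7 (120624249 to 120624413). The coding sequence and both copies, from the GENCODE vM21 transcripts, are shown because reads of Tomm7 could be placed at a copy, or the reverse. Capitals in Tomm7 mark the 16 bases that differ from, or have no partner in, at least 1 copy, and capitals in a copy mark bases that differ from Tomm7.
Tomm7: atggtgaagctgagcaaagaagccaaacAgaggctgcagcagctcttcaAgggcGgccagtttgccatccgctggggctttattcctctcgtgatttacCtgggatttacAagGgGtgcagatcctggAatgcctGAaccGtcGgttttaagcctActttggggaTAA
Gm13450: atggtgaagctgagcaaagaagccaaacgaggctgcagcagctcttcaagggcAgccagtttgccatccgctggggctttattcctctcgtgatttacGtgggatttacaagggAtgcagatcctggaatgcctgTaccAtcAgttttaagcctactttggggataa
Gm45113: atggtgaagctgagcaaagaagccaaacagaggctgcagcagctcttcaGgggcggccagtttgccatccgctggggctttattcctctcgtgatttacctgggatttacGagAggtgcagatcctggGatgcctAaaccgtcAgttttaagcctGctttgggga
Both copies were nearly silent in the count table. Gm13450 had a count in 1 cell (0.115 CPM) and Gm45113 in 5 cells (at most 0.0609 CPM). The copies align to at most 168 of the 1125 bases, at 95.8% identity each.

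The other members differ in how safely their reads can be placed. Tomm6 (chromosome 17, 47686646 to 47688386, minus strand) shares 84.2% of its 1131 exon bases with other annotated genes. Of these, 859 bases lie in exons of the same-strand gene Gm21981, which had no count in any cell, and 219 lie in the antisense gene Tomm6os. Reads in shared bases fit more than 1 gene, and the sources used here do not give how such reads were counted. In an alignment to all annotated transcripts, counting matches of at least 90% identity over 100 bases, Timm23 (chromosome 14, 32180162 to 32201898) has 7 copies elsewhere, among them Gm10273 with 1121 aligned bases at 99.9% identity, which had at most 9.52 CPM. Tomm20 (chromosome 8, 126930667 to 126945844) has 12 copies, the closest at 99.5% identity over 435 of its 4902 transcript bases. Tomm5 (chromosome 4, 45105208 to 45108114), Tomm22 (chromosome 15, 79670861 to 79673400) and Tomm40 (chromosome 7, 19701313 to 19715438) have 1, 1 and 0 copies at other loci. The levels of Tomm6, Timm23 and Tomm20 are therefore uncertain.

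Relative to its mean, Tomm7 varied least over the cells among the 7 transcripts. Its mean was also the highest of the 7, at 554 CPM, and genes of like level were not set beside it. Tomm7 was counted in all 73 cells, from 184 CPM through a median of 516 CPM to 1652 CPM, and its coefficient of variation was 0.447. The highest cell, library 37, stood apart from the next, library 21 at 1067 CPM. The receptor genes Tomm22 and Tomm20 had medians of 138 and 128 CPM and reached 10 CPM in 71 and 70 cells. Tomm5 had a median of 112 CPM (0 to 407) and Timm23 109 CPM (0.134 to 308). The pore gene Tomm40 was patchy, with a median of 45.2 CPM, a maximum of 297 CPM and no count in 14 cells. It reached 10 CPM in 69.9% of cells (exact Clopper-Pearson 95% interval 58 to 80.1), and its coefficient of variation was 1.00.

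Tomm6 was close to 0 in the count table. It had a count in 19 cells and a maximum of 2.76 CPM, and 0 of 73 cells reached 10 CPM, which allows a share of up to 4.11% of cells (3 of 73) or, by the exact interval, 4.93%. Intervals treat the 73 cells as independent draws and do not cover variation between animals. The limit for Tomm6 is for cells with counts assigned to it, since reads in its shared bases may not have been. The other 6 members averaged at least 10 CPM, the minimum used for comparisons across genes, and Tomm6 did not.

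Per kilobase of exon, Tomm7 had a median level of 459 CPM (quartiles 344 and 599), above the upper quartile of every other member. Tomm5 followed at 129 CPM per kilobase (quartiles 60.9 and 190.0), Tomm22 at 83.7 (46.4 and 152), Timm23 at 61.1 (34.2 and 103), Tomm20 at 26.1 (17.1 and 36.9) and Tomm40 at 10.0 (0.0930 and 17.2). Below Tomm7 the quartile ranges of adjacent genes in this order overlapped. Those of genes farther apart did not all overlap, since the lower quartiles of Tomm5 and Tomm22 lay above the upper quartile of Tomm20, and those of Tomm5, Tomm22 and Timm23 above that of Tomm40. The level of Tomm40 depends on the length used, since it had 27.5 CPM per kilobase of its longest coding transcript.

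To show the members along the prestin axis, the cells were read in 3 ranges of Slc26a5, namely 22 cells under 10 CPM, 19 cells from 10 to 100 CPM and 32 cells at 100 CPM or more. These are ranges of a graded value and not cell types. The limits are soft, with 5 cells between 5 and 20 CPM and 18 between 50 and 200 CPM.

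Tomm7 was lower in each range with more Slc26a5. Under 10 CPM of Slc26a5 it ran from 344 CPM through a median of 736 CPM to 1652 CPM. From 10 to 100 CPM it ran from 317 through 516 to 803 CPM, and at 100 CPM or more from 184 through 393 to 852 CPM. The ranges overlapped. Above the median of all cells stood 19 of 22, 10 of 19 and 7 of 32 cells in the same order, and 12 of the 32 cells with most Slc26a5 lay below every cell of the lowest range. The median in the highest range was 0.534 of that in the lowest. The cells with least Tomm7, libraries 24, 34 and 60, had 575, 677 and 794 CPM of Slc26a5, and those with most, libraries 37, 21 and 23, had 0.122, 0 and 3.47 CPM.

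Tomm5, another small subunit, also had its lowest median in the cells with most Slc26a5. Its median was 134 CPM (19.9 to 407) under 10 CPM of Slc26a5, 124 CPM (50.1 to 268) from 10 to 100 CPM and 55.1 CPM (0 to 248) at 100 CPM or more. The lower level lay in the last range, which overlapped widely with the others. It reached 10 CPM in all 22 and all 19 cells of the first ranges and in 27 of 32 cells of the last. Its median in the highest range was 0.410 of that in the lowest, a larger relative difference in medians than for Tomm7 (0.534), with a wider relative scatter. In CPM the difference was smaller than for Tomm7.

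Tomm22, Tomm20 and Timm23 did not have their lowest median in the cells with most Slc26a5. Tomm22 had medians of 128, 102 and 179 CPM over the 3 ranges and Tomm20 had 105, 116 and 133 CPM. Timm23 had 90.7, 93.2 and 153 CPM. Its lowest and highest values were 0.134 and 308 CPM in the lowest range and 1.91 and 294 CPM in the highest, so the extremes overlapped almost fully. Its quartiles were 41.5 and 126 CPM in the lowest range and 91.1 and 190 CPM in the highest. The Timm23 median in the highest range was 1.68 of that in the lowest. Tomm40 had 57, 36.1 and 42.6 CPM in the same order, with no steady direction, and reached 10 CPM in 19 of 22, 14 of 19 and 18 of 32 cells.

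**Figure D1:**
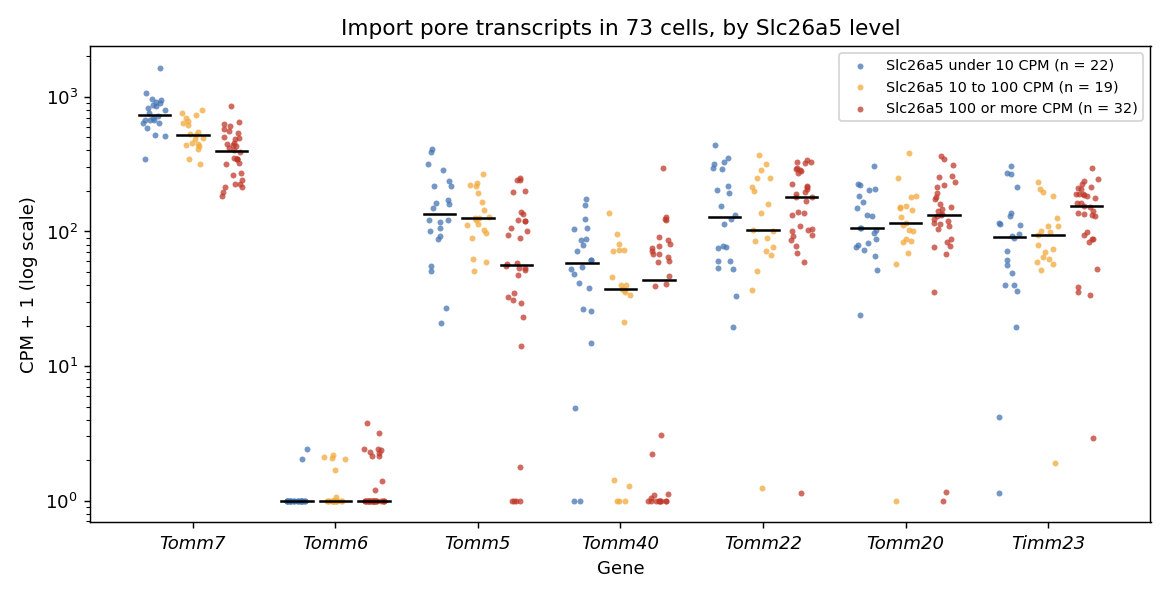
CPM + 1 on a log axis for each of the 7 genes, 1 point per cell, in cells with Slc26a5 under 10 (22 cells), 10 to 100 (19) and 100 or more CPM (32), with black bars at medians. Tomm7 medians step down at 736, 516 and 393 CPM, Tomm5 drops in the last range to 55.1 CPM, and Tomm6 lies at or near 0 throughout.

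As a rank correlation (Spearman) over the 73 cells, Tomm7 stood at -0.73 with Slc26a5, place 4 from the lowest of 8618 genes that averaged at least 10 CPM. Across these genes 0.870% were at -0.5 or lower and 1.35% at 0.5 or higher. Of the 6 members compared, 1 was at -0.5 or lower, which is Tomm7 itself, so this count follows from the choice of the set. The next member outside the threshold was Tomm5 at -0.39, then Tomm40 at -0.16. Tomm22 stood at 0.10, Tomm20 at 0.11 and Timm23 at 0.33. Tomm6 stood at 0.23, on 19 cells with a count. The 5 other members compared had a median of 0.10, beside -0.03 over all genes, and of the 4 TOM subunits among them Tomm5 and Tomm40 were negative and Tomm22 and Tomm20 positive. Strong correlations were commoner among abundant genes. In genes with a mean of 400 to 800 CPM, where Tomm7 lies, 7.59% were at -0.5 or lower, against 0.765% in genes with a mean of 50 to 200 CPM, where the other members lie, apart from Tomm6.

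The mt- share moved with both genes. It had a median of 6.06% (range 1.81 to 13.0), correlated at -0.49 with Slc26a5 and at 0.62 with Tomm7, and its medians over the 3 ranges of Slc26a5 were 8.80%, 6.06% and 5.08%. It correlated at 0.25 with Tomm5, at -0.25 with Tomm22 and Tomm20 and at -0.34 with Timm23. With ranks corrected for the mt- share, Tomm7 stood at -0.62, again place 4, and 0.337% of all genes were at -0.5 or lower. Tomm5 stood at -0.31, Tomm40 at -0.12, Tomm22 and Tomm20 at -0.02 and Timm23 at 0.19. Among the 37 cells with the lower mt- share (at most 6.06%) Tomm7 and Slc26a5 correlated at -0.64, and among the other 36 cells at -0.51.

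**Figure D2:**
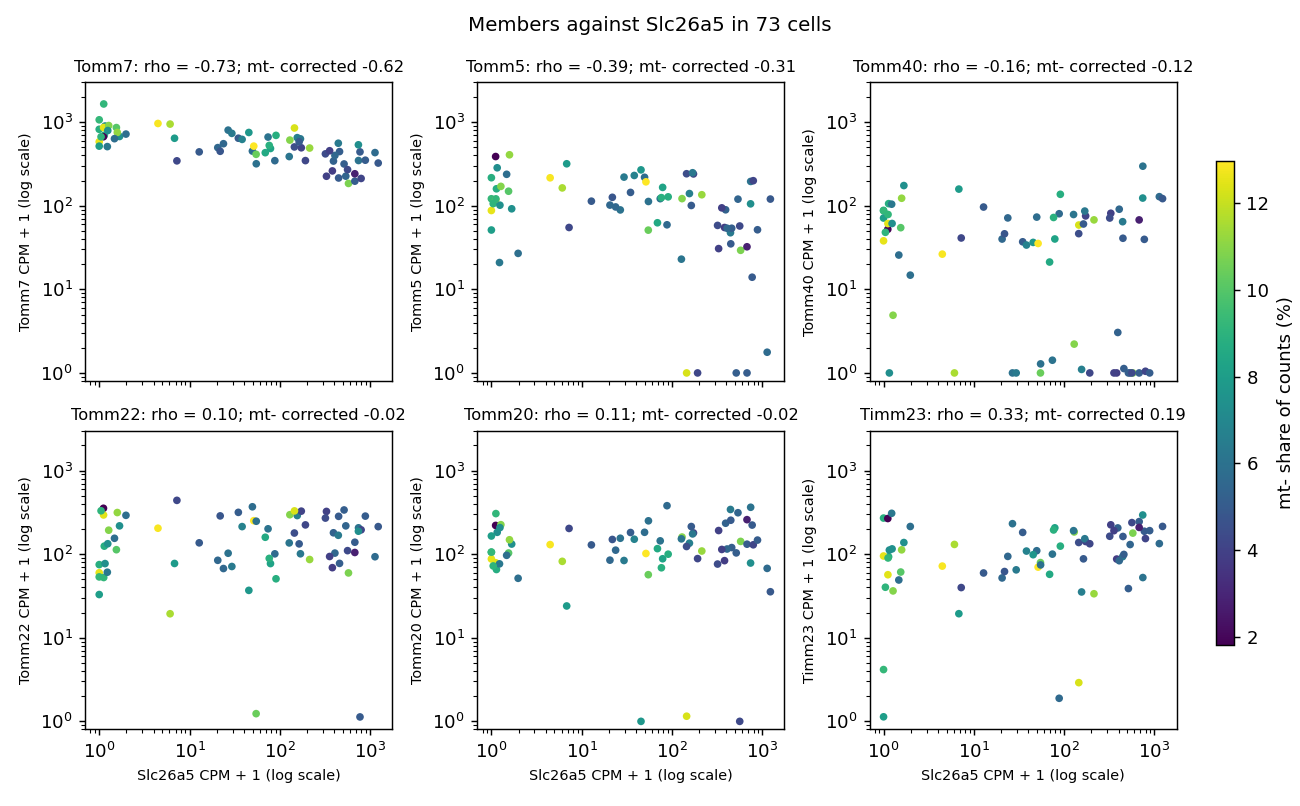
Each of the 6 measurable members (CPM + 1, log axis) against Slc26a5 (CPM + 1, log axis), 1 point per cell coloured by the percentage of counts from mt- genes. Tomm7 has a rank correlation of -0.73 (-0.62 corrected), and Tomm22 and Tomm20 have 0.10 and 0.11.

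Other properties of the libraries moved along the same axis. The share of counts from ribosomal protein genes correlated at 0.67 with Slc26a5 and -0.44 with Tomm7, and total counts at 0.27 and -0.31. The summed level of markers of other cell types correlated at 0.48 and -0.49, with medians of 550, 604 and 917 CPM over the 3 ranges of Slc26a5. That sum held 55 genes, of which 18 reached 10 CPM in no cell. By median its largest part was the 6 neuron markers, with 527 CPM over all cells beside 672 CPM for the whole sum. The neuron part had medians of 501, 377 and 604 CPM over the ranges. The supporting cell part had a median of 1.20 CPM over all cells. Whether these counts come from other cells was not tested. The glial part held 8 genes, of which 2 reached 10 CPM in no cell and 6, these included, in fewer than 10 cells. Its sum thus rests on few genes, and had medians of 0.136 CPM (0 to 154), 20.7 CPM (0 to 498) and 98.4 CPM (0 to 301) over the ranges and correlated at -0.55 with Tomm7. Sox10, 1 of the 8, had medians of 0, 0 and 65.3 CPM. The sums of blood and endothelial markers, none of which reached 10 CPM in 10 cells, correlated at 0.28 and 0.33 with Tomm7. Corrected for the ribosomal protein share, Tomm7 stood at -0.65 and was the lowest of all 8618 genes, of which 5 were at -0.5 or lower. Corrected for the mt- share, the ribosomal protein share, the number of genes and total counts together it stood at -0.59, again the lowest. Corrected for the summed markers of other cell types it stood at -0.64. Leaving out 25 cells that had a marker seen in few cells at 50 CPM or more, it stood at -0.68. The part of these properties in the relation was not otherwise tested.

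The relation was uneven along the axis. Within the 32 cells at 100 CPM or more of Slc26a5 the correlation was -0.54, and -0.53 corrected for the mt- share. Within the 19 cells from 10 to 100 CPM it was -0.15, and -0.32 corrected. Within the 22 cells under 10 CPM it was -0.02, where Slc26a5 is under the 10 CPM used for detection. In the highest range Tomm5 stood at -0.19, Tomm22 at -0.21 and Timm23 at 0.33.

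A ratio within each cell sets Tomm7 against its own complex and depends little on the scaling of the library. The log2 ratio of Tomm7 to the summed level of Tomm5, Tomm20, Tomm22 and Tomm40 had a median of 0.21 (SD over cells 0.80, range -1.61 to 1.95). Its medians over the 3 ranges of Slc26a5 were 0.68, 0.40 and -0.07, so in the highest range the CPM of Tomm7 was about that of the 4 others summed. The ratio is not scaled for gene length, so it does not compare transcript numbers between genes. It correlated at -0.48 with Slc26a5 and at -0.31 after the mt- correction, both short of 0.5. The sum itself correlated at -0.10, with medians of 527, 412 and 477 CPM.

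Most pairs of members had weak correlations over the cells. Over the 15 pairs without Tomm6, the median rank correlation was 0.01 (range -0.22 to 0.50) and 1 pair reached 0.5. That pair was Tomm7 and Tomm5, at 0.50, at 0.46 corrected for the mt- share and at 0.35 corrected for Slc26a5. Across all genes compared, 0.928% were at 0.5 or higher with Tomm7. That share is for pairs with Tomm7, and no share over pairs of other genes is given here. The next pair was the receptors Tomm22 and Tomm20 at 0.22. Tomm7 stood at 0.17 with Tomm40, at -0.13 with Tomm22, at -0.17 with Tomm20 and at -0.22 with Timm23. After the mt- correction these 4 values lay between -0.02 and 0.12. All pairs come from the same libraries and share their depth and composition.

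**Figure D3:**
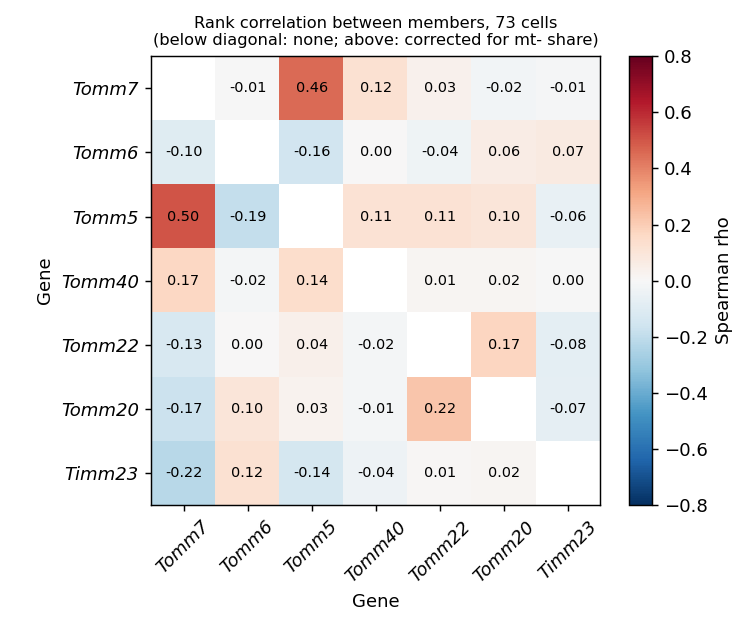
Spearman rank correlation between the 7 genes over 73 cells, without correction below the diagonal and corrected for the mt- share above it, with the value printed in each square. The square of Tomm7 and Tomm5 (0.50 and 0.46) is the only strong one among squares that range from -0.22 upward.

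The other genes of the import machinery lay around the values of all genes. Over 5 lists (TOM, TIM23 and its motor, TIM22 and small TIM chaperones, SAM and MIA, and presequence processing), 38 of 43 genes averaged at least 10 CPM. The other 5 were not compared. Of the 38, 1 was at -0.5 or lower with Slc26a5 (Tomm7) and 0 were at 0.5 or higher, before and after the mt- correction. Over all genes these shares were 0.870% and 1.35% before the correction and 0.337% and 0.464% after it, so the counts of the genes other than Tomm7 are near the background. The median of the 38 was -0.01, beside -0.03 over all genes. In the TOM list 5 of 7 genes compared were negative, Tomm7 among them, beside 4890 of all 8618 genes. The median of the 7 was -0.19, which includes Tomm7. In this list Tomm70a, the receptor for carrier proteins, stood at -0.22 and Tomm34, a cytosolic cofactor, at -0.19. In the TIM23 list of 13 genes, Timm17a, the partner of Timm23 in the inner channel, stood highest at 0.43 (0.31 corrected) and Dnajc19, of the import motor, lowest at -0.22. Pam16, also of the motor, correlated with Tomm7 at 0.32 and Timm17a at -0.42.

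The lists further along the route are given by their ranges with Slc26a5. The 8 genes of TIM22 and its chaperones ran from Timm10b at -0.13 to Timm8b at 0.18. SAM and MIA genes, which insert barrel proteins and fold proteins between the membranes, ran from Mtx1 at -0.18 to Mtx2 at 0.15. Presequence processing ran from Pmpcb, a subunit of the matrix processing peptidase, at -0.17 to Immp2l at 0.11.

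Of 10 genes compared from the PINK1 axis and the outer membrane proteases, which serve mitochondrial quality control, 0 reached 0.5 in size with Slc26a5 (all genes 0.870% and 1.35%) or with Tomm7 (1.54% and 0.928%), which is near the background for so few genes. Pink1 stood at 0.24 with Slc26a5 and -0.28 with Tomm7, and Usp30, a deubiquitinase of the outer membrane, at -0.12 and 0.24. Pgam5, a phosphatase of mitochondria, had the lowest value with Tomm7 at -0.30. Of 9 genes for porins, mitochondrial transcription and mass, the values with Slc26a5 ran from -0.19 (Polrmt, the mitochondrial RNA polymerase) to 0.17 (Tfam, which packs mitochondrial DNA). The porin genes Vdac1, Vdac2 and Vdac3 stood at -0.02, 0.14 and -0.01 with Slc26a5 and at 0.04, -0.22 and -0.02 with Tomm7, and Cs, which encodes citrate synthase, at -0.09 and -0.00.

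The mitochondrially encoded protein genes leaned towards Tomm7 before the correction. All 11 compared had positive correlations with Tomm7, beside 4587 of all 8618 genes. The 11 values ran from 0.16 (mt-Nd3) to 0.49 (mt-Nd5), with a median of 0.35 beside 0.02 over all genes, and 0 reached 0.5. With Slc26a5 10 of the 11 were negative, beside 4890 of all 8618 genes, and the lowest of the 11 was mt-Nd5 at -0.44. After the mt- correction the values with Tomm7 ran from -0.36 (mt-Co1) to 0.06 (mt-Nd5). The median with Slc26a5 was -0.21 before the correction and 0.22 after it. These genes are part of the mt- share, and the mt- ribosomal RNA share correlated with Tomm7 at 0.61 and the share of the protein genes at 0.41.

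**Figure D4:**
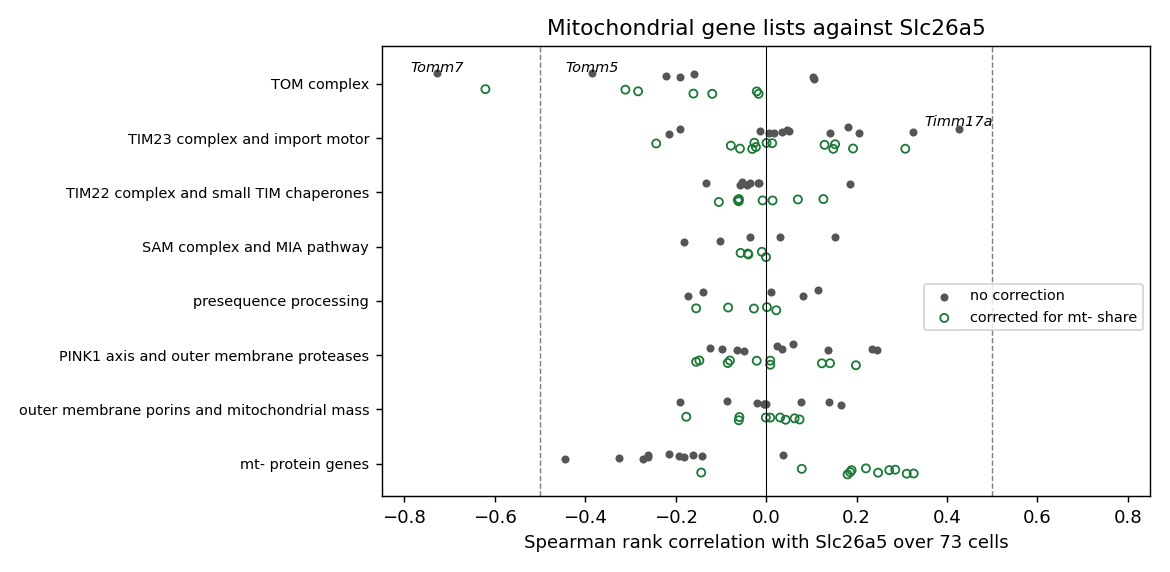
Spearman rank correlation with Slc26a5 over 73 cells for each gene of 8 mitochondrial lists, filled without and open with the correction for the mt- share, with dashed lines at -0.5 and 0.5. Tomm7 is the only point past a line (-0.73 and -0.62), and Timm17a is the highest import gene at 0.43.

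The genes whose pattern was most like Tomm7 came from outside the import lists. The measure was the rank correlation with Tomm7 over 73 cells among 8618 genes. Dnajc5b, a relative of a vesicle co-chaperone, was the highest at 0.77, then the kinase genes Rps6ka2 (0.74) and Map4k4 (0.72) with Ripor3 (0.73) between them. Igfbp5, which binds insulin-like growth factors, Osbp2, an oxysterol-binding protein, and Atp2a3, which pumps calcium into the endoplasmic reticulum, stood at 0.72, 0.72 and 0.70. Pcp4, a modulator of calmodulin, stood at 0.70, Pdcd6, a calcium-binding protein, at 0.69 and Ndufa2, a subunit of respiratory complex I, at 0.68. Of these 10, 9 were at -0.5 or lower with Slc26a5, beside 0.870% of all genes, and Pcp4 was at -0.43. Tomm7 was chosen for its relation to Slc26a5, so this count follows largely from picking genes like Tomm7. The lowest genes were Aqp11 (-0.78), Calb1 (-0.76), Sox10 (-0.75), Prxl2a (-0.74) and Anxa5 (-0.74), where 1.54% of all genes were at -0.5 or lower. Aqp11 is a water channel, Calb1 the calcium buffer calbindin and Anxa5 an annexin.

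With ranks corrected for Slc26a5, 8 genes were at 0.5 or higher with Tomm7 and 2 at -0.5 or lower. Pcp4 was at 0.62, Dnajc5b at 0.58 and Ndufa2 at 0.52, while Atp2a3 was at 0.33. Sox10, on the glial marker list given above, was at -0.55. After the mt- correction the highest 10 shared 5 genes with the first 10, namely Dnajc5b (0.69), Pcp4 (0.67), Rps6ka2 (0.63), Osbp2 (0.61) and Ripor3 (0.61). The others were Pvalb (0.66), which encodes the calcium buffer parvalbumin, Selenos (0.64), a selenoprotein of the endoplasmic reticulum, the potassium channel subunit gene Kcnab1 (0.63), Chst2 (0.63), a sulfotransferase, and Defb25 (0.60). The lowest 5 after the correction were Aqp11 (-0.70), Calb1 (-0.65), the deacetylase gene Sirt2 (-0.65), Slc26a5 (-0.62) and Sox10 (-0.62). In this corrected measure 0.453% of all genes were at 0.5 or higher and 0.441% at -0.5 or lower.

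These genes differed in how steep their levels were along the prestin axis. Atp2a3 had medians of 1178, 134 and 21.1 CPM over the 3 ranges of Slc26a5 and Igfbp5 had 2582, 2005 and 11.1 CPM. Ripor3 had 294, 28.6 and 0.121 CPM. Pcp4 had 1096, 891 and 771 CPM and Ndufa2 had 512, 423 and 307 CPM, beside 736, 516 and 393 CPM for Tomm7.

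**Figure D5:**
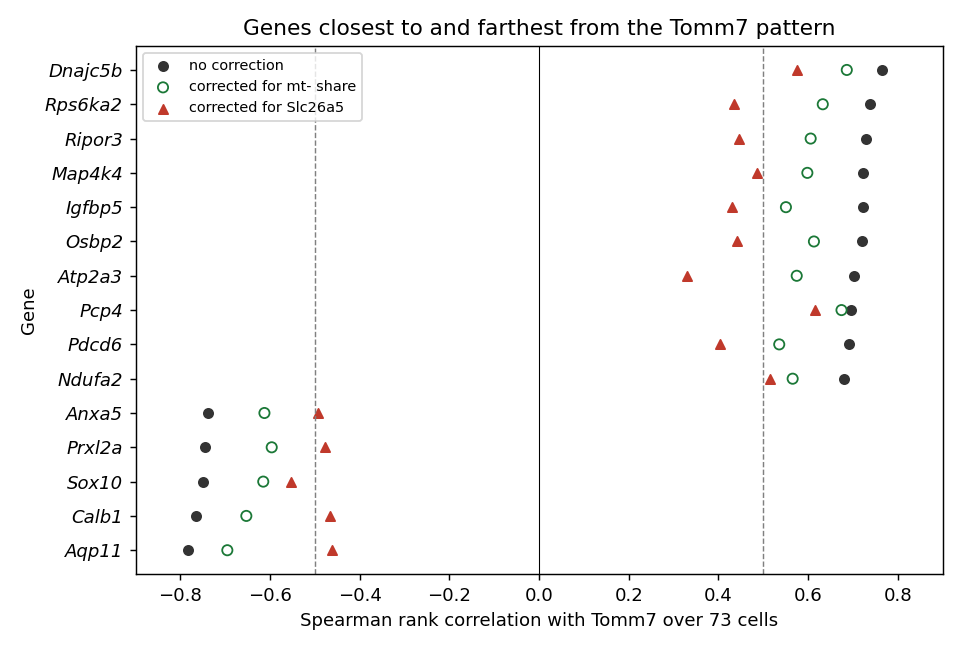
Spearman rank correlation with Tomm7 over 73 cells for the 10 highest and 5 lowest named genes, as filled circles without correction, open circles corrected for the mt- share and triangles corrected for Slc26a5. Pcp4 and Dnajc5b stay highest after correction for Slc26a5 (0.62 and 0.58), and Atp2a3 moves most among the 10, to 0.33.

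Of 11 inner hair cell genes compared, 5 were at 0.5 or higher with Tomm7, beside 0.928% of all genes, with a median of 0.48. They were Dnajc5b, Atp2a3, Slc7a14 (0.64), Tbx2 (0.55), a transcriptional regulator that sets inner over outer fate, and Slc17a8 (0.51), the vesicular glutamate transporter. Fgf8, the gene whose Flpo allele was used for picking, was at -0.61 and Rprm at -0.47. Of 8 outer hair cell genes, 3 were at -0.5 or lower, beside 1.54% of all genes, Sri at -0.73, Ocm at -0.57 and Chrna10 at -0.52, with a median of -0.39. The highest of them was Lmod3 at 0.06. Of 10 general hair cell genes, 1 was at 0.5 or higher (Pcp4, 0.70) and 1 at -0.5 or lower, the acetylcholine receptor gene Chrna9 at -0.69, with a median of 0.05. Chrna9 stood at 0.67 with Slc26a5, and Cib2, part of the mechanotransduction machinery, stood lowest of the list with Slc26a5 at -0.45. Because Tomm7 was chosen for its relation to Slc26a5, these values restate that axis and are not independent of it.

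Tomm7 and Slc26a5 lie on the same chromosome, 1.97 megabases apart. Of the 10 protein-coding genes nearest to Tomm7, 5 on each side, 7 averaged at least 10 CPM and 0 reached 0.5 in size with Slc26a5, near the shares of 0.870% and 1.35% over all genes. The adjacent genes Rint1 (chromosome 5, 23787711 to 23820369) and Fam126a (23915276 to 24030690) stood at -0.04 and -0.08. The lowest was the potassium channel gene Kcnh2 (24319589 to 24351604) at -0.47, which correlated with Tomm7 at 0.39. Of 344 genes with an exon length of up to 1200 bases, 1.45% were at -0.5 or lower with Slc26a5, with a median of 0.01, against 0.844% of longer genes.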

How the data were processed

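Smart-Seq HT cDNA of hand-picked single cells was sequenced, per the labels' protocols. The deposited values are whole-number counts, 1 column for each cell, made by the authors from their reads. Per the submitters' processing notes, HISAT2 2.2.1, StringTie 2.2.1, featureCounts 2.0.1 and the build mm10 were used. The sources used here give no roles, settings, strand use or annotation release. Without molecular identifiers, PCR copies are part of each count. The reporter element WPRE (0.0161% of counts) was kept out of the totals.

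CPM were made here from the counts and each library's total, and 1 count is 0.0269 CPM in the deepest and 0.0907 CPM in the shallowest library. Each Spearman correlation was taken across cells for 1 gene at a time, and corrected values are correlations of residual ranks. In the main comparison, places and shares over all genes use the 8618 genes averaging at least 10 CPM. No p-value was made, because the 73 cells are 1 sample. Ratios used a pseudocount of 1. No doublet caller was run on hand-picked cells. No 2 libraries were identical. Positions, exon lengths and transcripts come from GENCODE vM21 of the same build, and copies from BLAST+ 2.17.0 (at least 90% identity over 100 bases). Simulated counts for 8619 genes were correlated with a simulated axis gene. Of genes falling by 0.5, 1 and 2 log2 units per SD, 2.5%, 22.5% and 97.5% were called. Of genes rising by 1 unit, 57.5% were called. Scatter around these changes was set alike for every simulated gene, without cells set to 0. The shares called may therefore differ for patchy genes such as Tomm40. Of 8418 unchanged genes, 0 were at -0.5 or lower. The unchanged genes were drawn independently of each other, without shared library properties, so that 0 gives no background share for the real cells.

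The members, lists and rules were chosen with earlier results of these data known. Named genes are the members, the ends of each list and genes past 0.5 in it, the 10 highest and 5 lowest by correlation with Tomm7 among genes with an official name (before and after the mt- correction), 5 neighbours on each side and hair cell markers. Tomm70a, Tomm34, Pam16, Pgam5, Vdac1, Vdac2, Vdac3 and Cs were named after their values were seen. TMM factors came from edgeR 4.0.16 in R 4.3.3. The rest ran in Python 3.11.15 with scipy 1.17.1, pandas 2.3.3, numpy 2.4.6, Biopython 1.88 and matplotlib 3.10.9.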

Additional observations from a re-analysis of the deposited data

How the results depend on the processing

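The correlation of Tomm7 with Slc26a5 stayed at -0.5 or lower under all 21 alternatives, from -0.77 with median-of-ratios scaling to -0.58 in the 51 cells with Slc26a5 at 10 CPM or more, where its place was 15 from the lowest. Over the same alternatives Tomm5 ranged from -0.43 to -0.14, Tomm40 from -0.26 to -0.00, Tomm22 from -0.04 to 0.25, Tomm20 from -0.05 to 0.32 and Timm23 from 0.19 to 0.39, so Tomm22 and Tomm20 took both signs. The median of the other 6 members moved by less than the SD among them in all 22 alternatives, and Tomm7 was the only member at -0.5 or lower in each.

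The count of genes at -0.5 or lower (75) was 29 corrected for the mt- share, 5 for the ribosomal protein share and 5 for 4 properties together. It was 40 in cells with Slc26a5 at 10 CPM or more and 218 at a threshold of -0.4. With alternatives added after seeing the data it was 24 corrected for the mt- ribosomal RNA share and 30 for the summed markers of other cell types. The ratio of Tomm7 to other subunits (-0.48) passed -0.5 only when corrected for the ribosomal protein share (-0.55). It was -0.28 corrected for the mt- ribosomal RNA share, -0.31 for the mt- share, -0.34 in cells with Slc26a5 at 10 CPM or more and -0.39 without the top quartile of mt- share. Per kilobase of the longest coding transcript, Tomm40 had 27.5 CPM in place of 10.0. The cause of these shifts was not tested. Without library 37, highest in Tomm7, the correlation of Tomm7 was -0.72 (also added after seeing the data). Scaling moved the median log2 level of all genes in a cell by up to 0.24 (TMM). No paired analysis was possible because there is 1 group and no test. Tomm40 was patchy, with no count in 14 cells and up to 6098 counts in a cell. Tomm6 had few counts, at most 41 in a cell. Both patterns limit what the correlations of these 2 genes can show.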
